A study of Mus musculus with 8 samples.

Results

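Retinoid genes carry vitamin A and its active form, retinoic acid, through a cell, and 9 of the 19201 genes in the hippocampal RNA-seq of wild-type and Mbd2-/- mice are described here. They are Rbp4 and Stra6, which deliver retinol, Crabp1 and Crabp2, which bind retinoic acid, Rdh5, Aldh1a1 and Aldh1a2, which make retinaldehyde and retinoic acid, Cyp26b1, which degrades it, and Rarb, a receptor for it. The 9 genes were found by their symbols. Rdh5 and Crabp2 were chosen by the measured values themselves, as retinoid genes with large changes in opposite directions, so their changes are given as a description and carry no p-value. The other 7 were included for their place in the pathway.

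Each of the 8 libraries, 4 per genotype, was made from hippocampi of 2 mice that were 10 to 12 weeks old, so a replicate is a pool and the spread between replicates is the spread between pools. The wild-type libraries, called controls in the labels, came from C57BL/6 mice, and the Mbd2-/- libraries from a knockout line on the same background that lacks the methyl-CpG binding protein Mbd2 from conception on, bred from heterozygous parents. No animal received a treatment that the labels name. Ribosomal RNA was removed before sequencing, which yielded 8087750 to 23790825 reads on genes per library.

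Retinol, the alcohol form of vitamin A, circulates bound to retinol binding protein (Rbp4) and transthyretin (Ttr). Inside the cell retinol dehydrogenases oxidise it to retinaldehyde, and aldehyde dehydrogenases of the Aldh1a family oxidise that to retinoic acid. Retinoic acid binds nuclear receptors of the RAR family, which act in pairs with RXR receptors on DNA, and enzymes of the Cyp26 family clear it. In the adult brain the meninges are a known site of retinoic acid synthesis, the choroid plexus makes and secretes transthyretin, and retinoid signalling is known for its part in hippocampal plasticity and neurogenesis.

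Mbd2 itself was measured first as a check of the labels. Its normalized count, which is the number of reads divided by a size factor of the library, was 295, 363, 371 and 354 in wild-type replicates 1 to 4 and 244, 240, 339 and 217 in Mbd2-/- replicates 1 to 4. The mean was lower in Mbd2-/- libraries (log2 fold change -0.43, SE 0.12, limma adjusted p = 0.0174), but Mbd2-/- replicate 3 lay above wild-type replicate 1, so the gene's count did not separate the genotypes. The study's description of the line says that its first exon is still transcribed, and a count over the whole gene is therefore no check of a single library's label.

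The sequences before the start sites of 4 of the retinoid genes are shown because Mbd2 reads methylated CpG dinucleotides, and because these genes differ widely in how many CpGs they hold there. Windows of 250 bases upstream of annotated starts were taken from RefSeq on GRCm38.p6, and 8 of the 9 genes had at least 1, for 13 windows in all. Every CpG in the Rdh5, Aldh1a2 and Cyp26b1 windows is in capitals. The Rdh5 window, chr10:128919298-128919547 on the minus strand, held 4 CpGs, the Aldh1a2 window, chr9:71215539-71215788 on the plus strand, held 40, and the Cyp26b1 window, chr6:84593811-84594060 on the minus strand, held 7.
Rdh5: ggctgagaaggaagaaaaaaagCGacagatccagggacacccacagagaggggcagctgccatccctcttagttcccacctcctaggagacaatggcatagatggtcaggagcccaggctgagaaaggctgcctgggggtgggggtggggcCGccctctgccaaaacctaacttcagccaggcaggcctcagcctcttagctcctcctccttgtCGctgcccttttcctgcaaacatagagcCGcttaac
Aldh1a2: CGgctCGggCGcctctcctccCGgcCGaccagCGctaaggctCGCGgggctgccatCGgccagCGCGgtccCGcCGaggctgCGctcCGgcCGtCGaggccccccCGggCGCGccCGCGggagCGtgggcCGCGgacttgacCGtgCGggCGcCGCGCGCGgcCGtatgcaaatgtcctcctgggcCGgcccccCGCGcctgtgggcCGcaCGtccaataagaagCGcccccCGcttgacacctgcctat
Cyp26b1: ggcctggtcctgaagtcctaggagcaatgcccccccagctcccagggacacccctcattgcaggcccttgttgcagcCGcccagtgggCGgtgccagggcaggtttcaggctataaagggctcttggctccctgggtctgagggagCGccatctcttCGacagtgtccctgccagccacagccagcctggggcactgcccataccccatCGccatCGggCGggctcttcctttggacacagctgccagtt

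The median over 32851 windows of all genes was 6 CpGs. The Aldh1a2 window was thus CpG-rich, and 98.9% of all windows held no more CpGs than it did, whereas the corresponding share was 44.4% for Rdh5 and 57.0% for Cyp26b1. Among the other windows Crabp1 held 12 CpGs and Rarb 16, the 4 windows of Stra6 held 3 to 9, the windows of Rbp4 held 5 and 28, and those of Aldh1a1 held 3 and 1. CpG content is a feature of the sequence alone, and methylation at these windows was not analysed here.

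The binding sequence of retinoic acid receptors was sought in the same windows, since Rarb is a textbook target of its own ligand. The last 100 bases before the Rarb start, on the minus strand of chromosome 14, hold the known direct repeat spaced by 5 bases, which is in capitals here and runs from 53 to 37 bases upstream.
Rarb: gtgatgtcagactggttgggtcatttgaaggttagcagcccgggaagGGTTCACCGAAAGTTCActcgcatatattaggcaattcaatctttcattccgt

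The search on both strands was for any repeat of this form, with the hexamer AGGTCA, or a variant of it (either AGTTCA or the variant GGGTCA or the variant GGTTCA), on each side of a spacer of any 5 bases, and the 17 letters at Rarb are 1 instance of it. The form was present in 1 of the 13 windows of the retinoid genes and in 29 of the 32851 windows of all genes (0.0883%). The single hexamer AGGTCA, searched on both strands, was in 0 of the 13 windows and in 14.0% of all windows. A match describes the letters of these windows and says nothing of binding in these mice.

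Of the 9 genes, 8 reached a mean of 10 normalized counts over the libraries and were fitted with limma together with all genes that passed, 14504 in total. Over all of these, 22.0% were called at an adjusted p under 0.05, 12.0% higher and 10.0% lower in Mbd2-/- libraries, and the genotypes did not overlap for 23.6%. Of the 6 retinoid genes that were tested and not picked for their change, 2 were called, Aldh1a2 and Cyp26b1, both lower (33.3%), and 3 did not overlap between genotypes. With 6 genes this share cannot be told from the background. The plot of normalized counts by library shows all 9 genes.

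**Figure D1:**
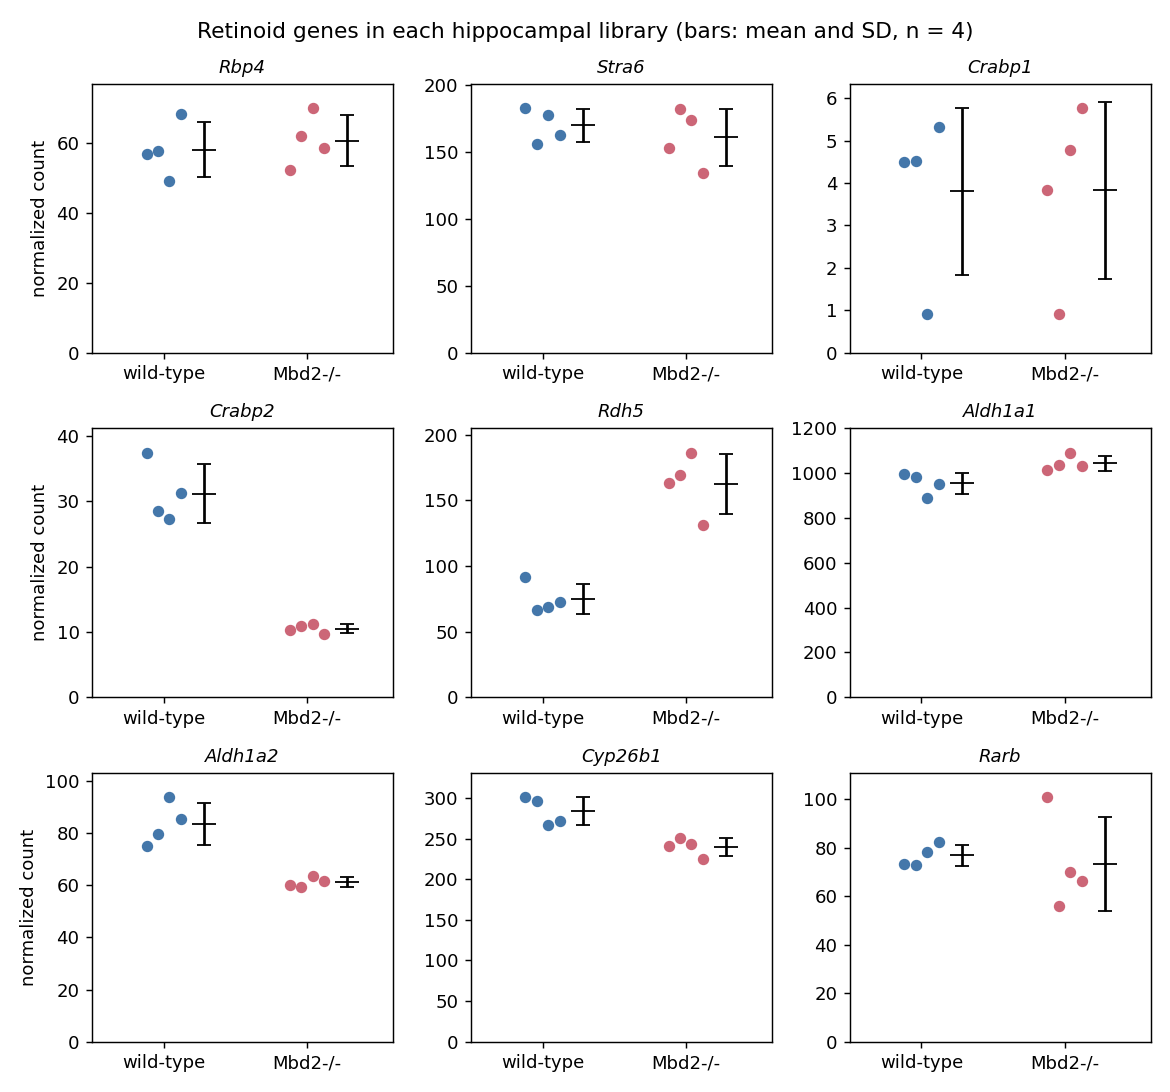
Normalized count (vertical axes, from 0) of the 9 retinoid genes in 4 wild-type (blue) and 4 Mbd2-/- (red) hippocampal libraries, with 1 point per library in replicate order from left to right and bars for the mean and SD. The genotypes are apart for Rdh5, Crabp2, Aldh1a1, Aldh1a2 and Cyp26b1, and they overlap for Rbp4, Stra6, Crabp1 and Rarb.

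Retinol delivery was measured through Rbp4 and Stra6, and neither passed the test. Rbp4, on mm9 chr19:38191110-38199811 (minus strand), encodes the carrier of retinol in blood. It had normalized counts of 57.0, 57.9, 49.2 and 68.5 in wild-type replicates 1 to 4 and 52.4, 62.2, 70.1 and 58.6 in Mbd2-/- replicates 1 to 4. The groups overlapped across almost their whole range, and the log2 fold change was 0.07 (SE 0.14, 95% interval -0.24 to 0.37, limma adjusted p = 0.779). It was -0.01 without wild-type replicate 3 and -0.005 without Mbd2-/- replicate 3.

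Stra6, on chr9:57911595-58001803 (plus strand), encodes the membrane receptor that takes up retinol from Rbp4. Its normalized counts were 183, 156, 178 and 163 in wild-type and 153, 182, 174 and 135 in Mbd2-/- replicates 1 to 4. The lowest value belonged to an Mbd2-/- library, but the others were interleaved. The log2 fold change was -0.08 (SE 0.10, 95% interval -0.30 to 0.14, limma adjusted p = 0.597), so a rise by more than 0.14 or a fall beyond the lower bound lies outside the interval. Stra6 overlaps Ccdc33 on the opposite strand, but they share 0 exonic bases.

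The retinoic acid binding proteins differed in level and in change. Crabp2, on chr3:87752588-87757298 (plus strand), encodes a protein that hands retinoic acid to its receptors in the nucleus. Its normalized counts were 37.5, 28.6, 27.3 and 31.3 in wild-type replicates 1 to 4 and 10.2, 11.0, 11.2 and 9.61 in Mbd2-/- replicates 1 to 4. All 4 Mbd2-/- libraries were lower than all 4 wild-type ones, and they were close to each other (10.5 ± 0.714 against 31.2 ± 4.51, SD, n = 4 each).

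The counts behind these values were small. Crabp2 had 25 to 59 reads in wild-type and 7 to 12 reads in Mbd2-/- libraries. The Mbd2-/- mean was 0.336 of the wild-type mean, and the log2 fold change on the scale of log2(normalized count + 1) was -1.48 (SE 0.21). It was -1.22 with a pseudocount of 5 and -1.74 when each library's trend with transcript length was removed.

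Crabp1, on chr9:54612555-54620917 (plus strand), encodes the other cellular retinoic acid binding protein, which is known mostly from developing tissue. It was barely detected, with 3, 6, 1 and 10 reads in wild-type and 3, 1, 3 and 6 reads in Mbd2-/- replicates 1 to 4. Mean normalized counts were 3.81 ± 1.97 and 3.82 ± 2.09 (SD, n = 4), below the minimum of the test, and a change of this gene was not detectable at this depth.

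Among the enzymes of synthesis, Rdh5 was higher, Aldh1a2 was lower and Aldh1a1 did not pass the test. Rdh5, on chr10:128350649-128359944 (minus strand), encodes a retinol dehydrogenase best known from the visual cycle of the retinal pigment epithelium, where it oxidises 11-cis-retinol. Its normalized counts were 91.4, 66.2, 68.4 and 72.2 in wild-type replicates 1 to 4 and 163, 169, 186 and 132 in Mbd2-/- replicates 1 to 4. The lowest Mbd2-/- library, replicate 4, was still above the highest wild-type library, replicate 1. The means were 74.6 ± 11.5 and 163 ± 22.9 (SD, n = 4), a 2.18-fold difference, with a log2 fold change of 1.12 (SE 0.13).

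Part of the Rdh5 exons lies in another gene. Bloc1s1, a subunit of a complex that forms lysosome-related organelles, lies on the same strand at chr10:128354938-128361091, and 720 of the 2809 exonic bases of Rdh5 are shared with it. Bloc1s1 rose as well (303 ± 11.2 to 440 ± 50.1, log2 fold change 0.53, SE 0.08, limma adjusted p = 4.47e-04). How reads in the shared bases were assigned is not given in the sources used here, so the Rdh5 value is uncertain to that extent. The study also measured Rdh5 by quantitative PCR and reports it as up-regulated in Mbd2-/- mice.

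Aldh1a1 and Aldh1a2 encode enzymes that oxidise retinaldehyde to retinoic acid. Aldh1a1, on chr19:20676451-20717952 (plus strand), had normalized counts of 995, 984, 891 and 951 in wild-type and 1013, 1038, 1092 and 1032 in Mbd2-/- replicates 1 to 4. The groups did not overlap, but the gap between them was small beside their spread. The log2 fold change was 0.13 (SE 0.06, 95% interval 0.01 to 0.25) and missed the threshold after adjustment over all genes (limma adjusted p = 0.113).

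Aldh1a2, on chr9:71063596-71144050 (plus strand), is the gene with the CpG-rich window shown above. It had normalized counts of 74.9, 79.8, 93.9 and 85.5 in wild-type and 60.0, 59.4, 63.8 and 61.5 in Mbd2-/- replicates 1 to 4. Every Mbd2-/- library was below every wild-type library, and the mean fell from 83.5 ± 8.15 to 61.2 ± 1.93 (SD, n = 4). The log2 fold change was -0.44 (SE 0.12, 95% interval -0.69 to -0.19, limma adjusted p = 0.0155). The call was lost without wild-type replicate 3 (adjusted p = 0.0617, limma) or wild-type replicate 4 (adjusted p = 0.0511, limma).

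Cyp26b1, on chr6:84521938-84543740 (minus strand), encodes a hydroxylase that clears retinoic acid and is known from the adult hippocampus. Its normalized counts were 301, 296, 267 and 271 in wild-type and 241, 251, 244 and 225 in Mbd2-/- replicates 1 to 4. The groups did not overlap, and the mean fell from 284 ± 17.3 to 240 ± 10.9 (SD, n = 4). The log2 fold change was -0.24 (SE 0.08, 95% interval -0.40 to -0.08, limma adjusted p = 0.0322). This call was close to the threshold, and it was lost with DESeq2 (adjusted p = 0.0534), with the trend on transcript length removed (-0.18, limma adjusted p = 0.115) and in 5 of the 8 fits that left out a library (without wild-type replicate 1, 2 or 4 or Mbd2-/- replicate 1 or 2), where the limma adjusted p reached at most 0.0975.

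Rarb, on chr14:17263356-17651381 (minus strand), encodes the retinoic acid receptor whose upstream repeat is printed above. It had normalized counts of 73.4, 73.0, 78.4 and 82.3 in wild-type and 101, 55.8, 70.1 and 66.3 in Mbd2-/- replicates 1 to 4. The 4 wild-type libraries were close together, whereas Mbd2-/- replicate 1 was above all of them and the remaining Mbd2-/- libraries were below. The log2 fold change was -0.10 (SE 0.15, 95% interval -0.43 to 0.23, limma adjusted p = 0.688), and it was -0.26 without Mbd2-/- replicate 1 and 0.02 without Mbd2-/- replicate 2.

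Levels can be ordered between genes only per length, here as RPKM computed from the recovered reads on genes and the longest transcript. On the RPKM scale the wild-type libraries held Aldh1a1 at 36.9 ± 1.93, followed by Cyp26b1 at 5.01 ± 0.319, Rdh5 at 4.44 ± 0.678, Stra6 at 4.37 ± 0.307, Rbp4 at 3.71 ± 0.509, Aldh1a2 at 2.92 ± 0.278, Crabp2 at 2.65 ± 0.380, Rarb at 2.00 ± 0.111 and Crabp1 at 0.377 ± 0.195 (SD, n = 4). Each gene from Cyp26b1 down to Crabp2 overlapped its neighbour in this order, while Aldh1a1, Rarb and Crabp1 stood apart from the genes next to them.

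In Mbd2-/- libraries Rdh5 moved to second place at 9.59 ± 1.30 RPKM, between Aldh1a1 at 39.9 ± 0.946 and Cyp26b1 at 4.19 ± 0.180. Crabp2, at 0.883 ± 0.0539, fell below Rarb at 1.90 ± 0.520. Rdh5 therefore had the second highest per-length level of the 9 genes in Mbd2-/- hippocampus and Crabp2 the second lowest.

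Other genes of the pathway were taken from a list of 55 symbols grouped by role, of which 50 were in the data and 32 passed the minimum for the test. Of these 32, 10 were higher and 4 lower in Mbd2-/- libraries (43.8% called, against 22.0% of all genes), and the median log2 fold change was 0.01, against 0.00 over all genes tested. With each library's trend on transcript length removed, 4 were higher and 1 lower (15.6% called, against 14.8% of all genes), so the larger share was not present under that setting. The plot of fold changes by role shows them one by one, and differences between roles were not tested. Roles with tested genes hold 4 to 9 each, and the counts per role below were not tested against the 22.0% of all genes.

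**Figure D2:**
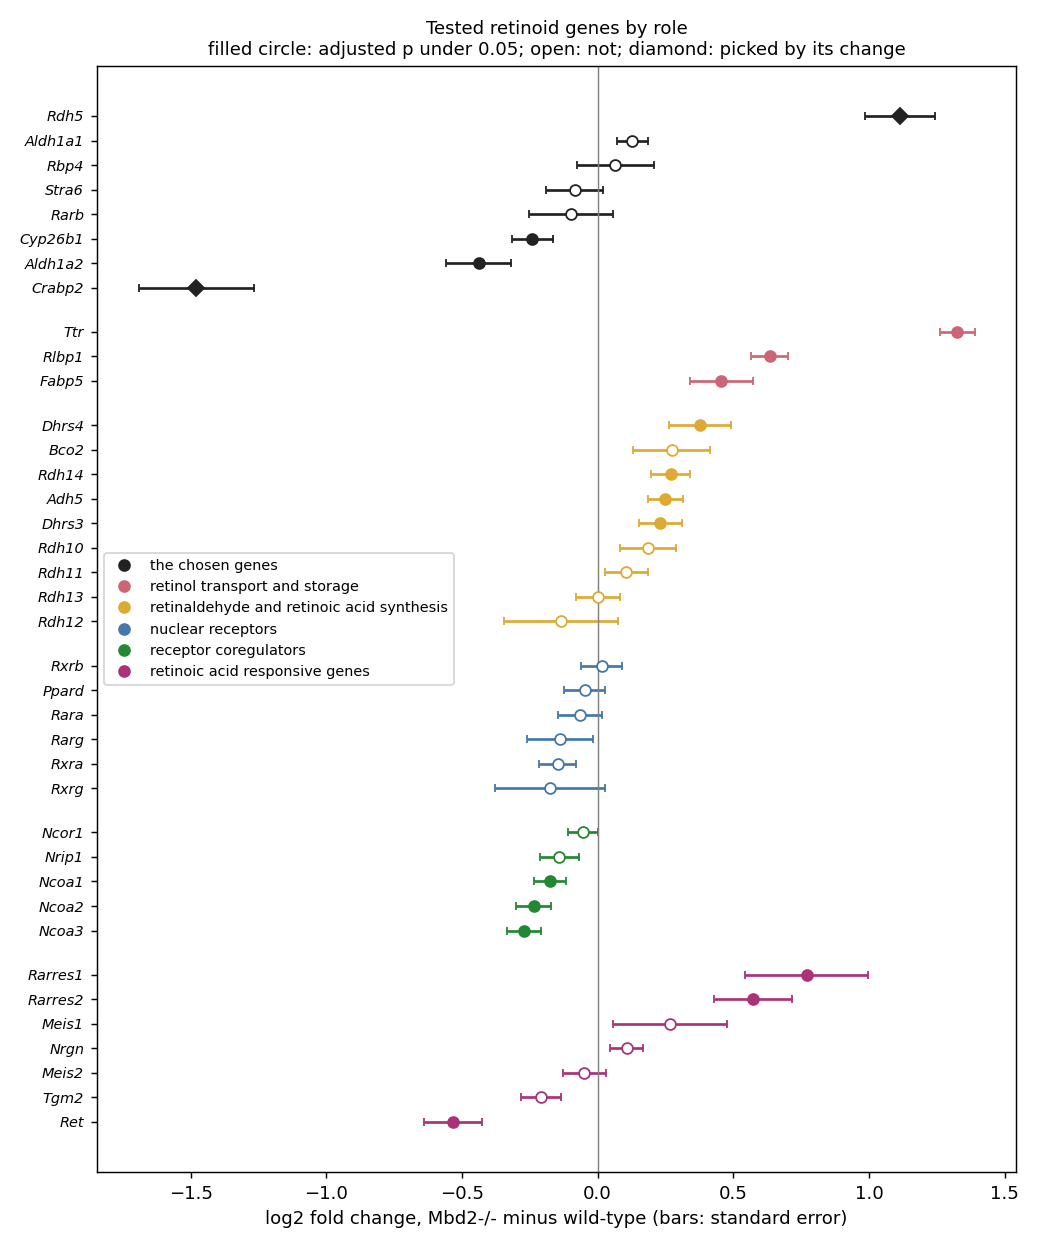
Log2 fold change between Mbd2-/- and wild-type libraries (horizontal axis, on log2(normalized count + 1), bars for the standard error) of the tested retinoid genes that are reported, grouped by role and coloured by group. Filled circles passed an adjusted p of 0.05, open circles did not, and diamonds are the genes picked for their change. The transport genes shown lie to the right of 0, while 5 of the 6 receptors and the coregulators shown lie to the left.

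In transport and storage, 4 of 4 tested genes rose, among them Ttr, Rlbp1 and Fabp5. The other 6 of the 10 listed, such as Lrat, which stores retinol as esters, had too few reads (3.86 and 2.43 mean normalized counts in wild-type and Mbd2-/- libraries for Lrat), and Rbp4 and Stra6, described above, were not called. Ttr, the partner of Rbp4 in blood and the main product of the choroid plexus, rose from 12761 ± 648 to 32066 ± 3323 normalized counts (SD, n = 4, log2 fold change 1.32, SE 0.06, limma adjusted p = 3.42e-09). Rlbp1, which binds retinaldehyde in retinal cells, rose from 246 ± 9.39 to 383 ± 14.8 (0.63, SE 0.07, adjusted p = 3.30e-05, limma). Fabp5, a fatty acid binding protein that can also carry retinoic acid, rose from 607 ± 79.6 to 839 ± 148 (0.46, SE 0.12, adjusted p = 0.0128, limma), with overlapping groups, and its call was lost without Mbd2-/- replicate 3 (adjusted p = 0.0513, limma) and in limma without trend and robust moderation (adjusted p = 0.0602).

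Among the other genes listed for retinaldehyde and retinoic acid synthesis, 4 of 9 tested rose and none fell. They were the reductase genes Dhrs4 (log2 fold change 0.38, adjusted p = 0.0273) and Dhrs3 (0.23, adjusted p = 0.0471), the retinol dehydrogenase gene Rdh14 (0.27, adjusted p = 0.0145) and the alcohol dehydrogenase gene Adh5 (0.25, adjusted p = 0.0125), all by limma with n = 4 per genotype. A reductase runs opposite to an oxidation step, so these counts give no direction of synthesis. Rdh10, which carries out most of the conversion of retinol to retinaldehyde in the embryo, had 142 ± 11.6 and 163 ± 19.4 normalized counts (0.19, limma adjusted p = 0.205). Values for Rdh11, Rdh12, Rdh13 and Bco2, which were not called either, ran from -0.14 to 0.27 on the log2 scale. The Rdh14 call was lost without wild-type replicate 3 and the Adh5 call without wild-type replicate 3 or Mbd2-/- replicate 2. Dhrs4 kept its call only without wild-type replicate 2, Mbd2-/- replicate 3 or Mbd2-/- replicate 4, and Dhrs3 only in the fits that left out wild-type replicate 2 or Mbd2-/- replicate 4. With a library left out, log2 fold changes ran from 0.33 to 0.47 for Dhrs4, 0.18 to 0.27 for Dhrs3, 0.24 to 0.32 for Rdh14 and 0.21 to 0.28 for Adh5. The Dhrs3 call was kept in 6 of the 12 alternatives that used all libraries, and was lost with DESeq2 (adjusted p = 0.0702), total count scaling (limma, 0.0634), no filter on low counts (limma, 0.0645), the replicate block (limma, 0.0543) and limma without trend and robust moderation (0.0574), where that of Dhrs4 was lost too (0.0545). None of the 4 calls among these enzymes was kept with the trend on transcript length removed, where the log2 fold changes were 0.19 for Dhrs4, 0.17 for Dhrs3, 0.10 for Rdh14 and 0.10 for Adh5.

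The enzymes that break down retinoic acid beside Cyp26b1 were near the limit of detection. Cyp26a1 had mean normalized counts of 2.93 and 1.27 in wild-type and Mbd2-/- libraries, and Cyp26c1 had 0.721 and 0.240, so neither was tested.

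None of the 6 other nuclear receptors was called by limma, and edgeR and DESeq2 called 0 as well. At an unadjusted p under 0.05 there was 1, Rxra, with 568 ± 21.7 and 514 ± 42.5 normalized counts (log2 fold change -0.15, limma adjusted p = 0.135), and it was called without Mbd2-/- replicate 3 (-0.20, limma adjusted p = 0.0333). The most abundant receptor, Rxrb, had 803 ± 60.5 and 813 ± 79.3 (0.02, limma adjusted p = 0.908), and -0.02 with the trend on transcript length removed. Ppard, Rara, Rarg and Rxrg had log2 fold changes of -0.05, -0.06, -0.14 and -0.18.

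Among the 6 coregulators, proteins that join the receptors to chromatin enzymes, the coactivators Ncoa1, Ncoa2 and Ncoa3 fell. Their log2 fold changes were -0.17 (adjusted p = 0.0411, limma), -0.24 (adjusted p = 0.0162, limma) and -0.27 (adjusted p = 0.0065, limma). The corepressors Ncor1 and Nrip1 had values of -0.05 and -0.14 and were not called. Ncoa1 kept its call in 1 of the 8 fits that left out a library, the one without Mbd2-/- replicate 4, and Ncoa2 lost its call without wild-type replicate 2 or Mbd2-/- replicate 2 (-0.20 and -0.23), and both lost it in limma without trend and robust moderation (adjusted p = 0.116 and 0.0683), Ncoa1 also with no filter on low counts (limma adjusted p = 0.0529), while Ncoa3 kept it in all 8. Nrip1 was called without Mbd2-/- replicate 4 (-0.20). With the trend on transcript length removed, the values of the coactivators were -0.05, -0.11 and -0.15 and none was called, and Ncor1 changed sign to 0.08.

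Genes known to respond to retinoic acid went in both directions. Of 7 tested, 2 rose and 1 fell. Rarres1 rose from 14.0 ± 3.37 to 24.1 ± 1.45 normalized counts (log2 fold change 0.77, SE 0.23, limma adjusted p = 0.0227), and Rarres2, which encodes the secreted protein chemerin, rose from 49.7 ± 5.84 to 74.5 ± 10.5 (0.57, SE 0.14, limma adjusted p = 0.010). Neither call was kept with the trend on transcript length removed (0.58 and 0.26), and that of Rarres1 was also lost without wild-type replicate 2 or 4 or Mbd2-/- replicate 1 or 2 (0.65 to 0.77). Ret, a receptor for neurotrophic factors of the GDNF family, fell from 130 ± 4.04 to 90.0 ± 10.4 (-0.53, SE 0.11, limma adjusted p = 0.0026). Tgm2, a transglutaminase often used as a readout of retinoic acid, had 228 ± 8.26 and 197 ± 4.87 (-0.21, limma adjusted p = 0.0567), and Meis1, Meis2 and the synaptic gene Nrgn were not called, at 0.27, -0.05 and 0.11. Tgm2 was called in 3 of the 12 alternatives that used all libraries, namely limma without trend and robust moderation (adjusted p = 0.0318), total count scaling (limma adjusted p = 0.0424) and a minimum mean of 50 (limma adjusted p = 0.0465). Nrgn was called without Mbd2-/- replicate 4 (0.18, limma adjusted p = 7.29e-04), whereas with the trend on transcript length removed it changed sign to -0.09 and Meis2 to 0.04, neither of them called. Meis2 was also above 0 without wild-type replicate 2 (0.001) or Mbd2-/- replicate 3 (0.008).

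Several of these genes are known to be expressed outside neurons, so markers of the tissues a hippocampal dissection could include were summed per library, which the plot of marker genes shows one by one. In bulk samples fewer cells of a type and less RNA per cell cannot be told apart. Of all tested genes 12.0% were called higher and 10.0% lower, and the marker counts below were not tested against these shares. Choroid plexus markers were higher in 18 of 18 tested genes, with a median log2 fold change of 0.90. Their summed normalized count was 24608 to 26294 in wild-type and 47571 to 54017 in Mbd2-/- libraries. The highest normalized counts were those of Ttr, which is also in the list of retinoid transport genes and made up 58.1% of the summed level, the phospholipase gene Enpp2 (0.61) and Kl (0.56). None of the 18 was at 0 in any library.

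Markers of meningeal fibroblasts did not move as a block. Of 16 tested, 5 were higher and 1 lower, with a median of -0.12, and the summed normalized count was 2908 to 3009 in wild-type and 3643 to 4262 in Mbd2-/- libraries. The genes with the highest normalized counts, the growth factor gene Igf2 and the collagen genes Col1a1 and Col1a2, were higher by 0.43, 1.37 and 0.56 on the log2 scale. The proteoglycan gene Dcn was lower (-0.51, limma adjusted p = 0.0069). Per length, wild-type Dcn (10.4 RPKM) stood above Col1a2 (5.43 RPKM) and Col1a1 (3.97 RPKM).

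Markers of the thalamus, which lies beneath the hippocampus, were lower in 11 of 15 tested genes, with a median of -0.49 and a summed normalized count of 5530 to 5686 in wild-type and 3798 to 4052 in Mbd2-/- libraries. The highest normalized counts, which are not per length, were those of Amotl1 (-0.43), Plekhg1 (-0.40) and Prkcd (-0.61). Hippocampal neuron markers had a median of -0.08, with 1 of 12 higher and 3 lower and sums of 15721 to 16175 and 14941 to 15607. The wild-type means of Neurod2, Fibcd1 and Zbtb20 were 1542 to 2127 normalized counts, so defining genes of the labelled tissue were present.

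Striatal markers (2 of 9 higher, 1 lower) had overlapping sums of 2341 to 2507 and 2331 to 2552, and those of endothelium (2 of 8 higher) had 3462 to 3624 and 3633 to 3841. Of the markers of midbrain dopamine neurons, 1 of 3 tested was lower (Nr4a2, -0.29), the sums were 786 to 838 and 672 to 738, and Lmx1b, Foxa1 and En1 were at 0 in some libraries. The part of the choroid plexus, meningeal and thalamic levels in the values of the retinoid genes was not tested.

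**Figure D3:**
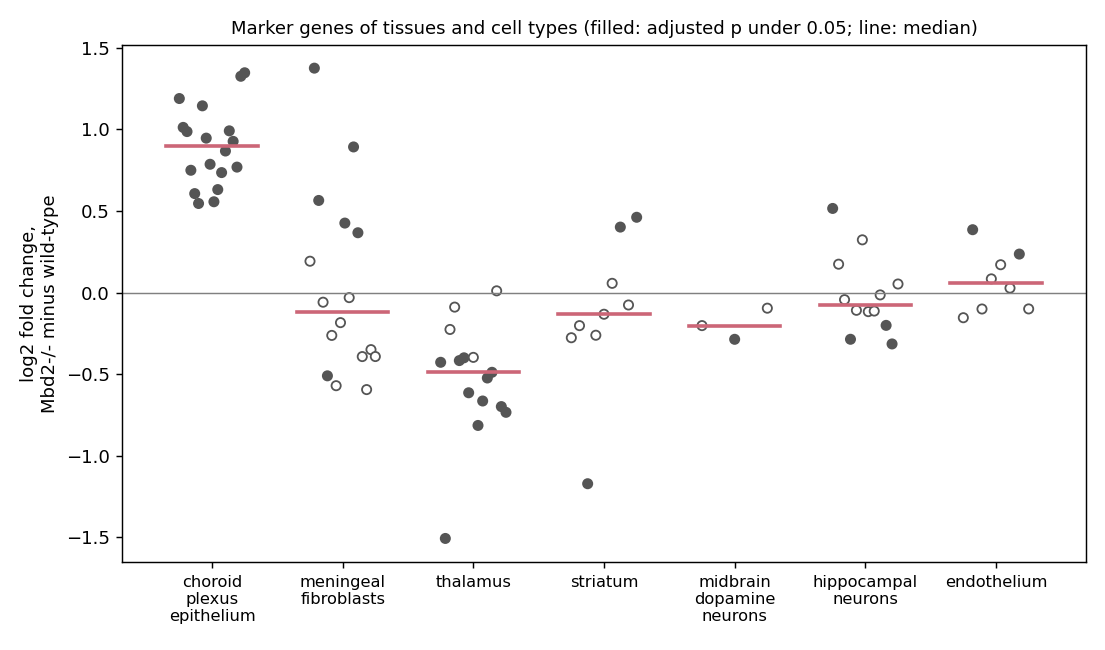
Log2 fold change between Mbd2-/- and wild-type libraries of each tested marker gene (points) for 7 tissues or cell types, with the median of each list as a bar. Choroid plexus markers all lie above 0 (median 0.90), thalamic markers lie mostly below 0 (median -0.49), the 3 midbrain dopamine markers lie below 0 (median -0.20) and the other 4 lists lie on both sides of it.

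Rdh5 was also expressed relative to these summed markers in the same library. The choroid plexus sum itself was higher in every Mbd2-/- library, as given above, so the ratio of a gene that did not change is bound to fall. Per 1000 normalized counts of choroid plexus markers, Rdh5 had 2.93 ± 0.365 in the wild-type group and 3.13 ± 0.281 in the Mbd2-/- group (SD, n = 4), with overlap. Without Ttr, which dominates that sum, Rdh5 had 5.92 ± 0.824 and 8.27 ± 1.35, with ranges of 5.28 to 7.13 and 6.50 to 9.78, which again overlapped. Enpp2 made up most of the sum without Ttr, with mean normalized counts of 9641 in wild-type and 14678 in Mbd2-/- libraries. The log2 fold change of Enpp2, 0.61, was below the median of 0.90 for the choroid plexus list. Per 1000 normalized counts of meningeal markers, whose sum was also higher in Mbd2-/- libraries, Rdh5 had 25.2 ± 4.21 and 40.7 ± 3.34, with ranges of 22.0 to 31.3 and 36.1 to 43.8, which did not overlap. Igf2 alone made up 36.4% of the meningeal sum, and the median log2 fold change of that list was -0.12. The higher meningeal sum thus does not stand for the list as a whole. What this says of the source of Rdh5 was not tested.

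Libraries also differed in how their values followed transcript length. The rank correlation between transcript length and the deviation of a gene in a library from the wild-type mean, over 14182 genes, was -0.07 to 0.06 in wild-type libraries, -0.43 to -0.48 in Mbd2-/- replicates 1 to 3 and -0.10 in Mbd2-/- replicate 4. Shorter transcripts thus stood relatively higher in 3 of the 4 Mbd2-/- libraries, and whether this trend is technical or belongs to the genotype cannot be told apart here. Among the retinoid genes the longest transcripts of Rdh5 and Crabp2 span 1329 and 931 bases and that of Cyp26b1 4495 bases. With the trend removed from each library the log2 fold change of Rdh5 was 0.92, that of Aldh1a2 was -0.51 (limma adjusted p = 0.0081), and that of Rbp4 changed sign to -0.14. Replicate 4, the Mbd2-/- library with little of this trend, had the lowest Rdh5 of its group and a Crabp2 of 9.61, also the lowest.

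How the genes varied among libraries of 1 genotype was described by the correlation of deviations from the genotype means over the 8 libraries, which share depth and normalization and carry no p-value here. Each gene named as most alike was the highest among some 12059 over only 8 libraries, where high values are easily reached. The best r was 0.95 to 0.99 for all 9 genes, Crabp1 with its few reads included, so such a value is no sign of a link. The genes most like Rdh5 among 12059 were 1500015O10Rik, Wbscr27 and Kcnk1 (r = 0.99 for each). Those most like Crabp2 were Rps4x, Pstk and Sbno2 (0.97), for Stra6 BC017158, Pdgfb and Commd4 (0.97), and for Aldh1a1 Tfr2, Rnf144a and Ppa1 (0.95 to 0.98).

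The remaining genes had other neighbours. Rarb was most like the thalamic marker Zic1 (0.98), then Kif9 and Btg1, and Cyp26b1 was most like Ift74 (0.97), Mcm3 and Tmem150c. Aldh1a2 was nearest to Josd2 (0.95), Ccdc166 and Arid3a, Rbp4 to Hist1h4i (0.95), Zfp783 and Ide, and Crabp1, with few reads, to Zfp958 (0.97), Mocs2 and Vwc2. Among the 9 genes themselves, Rdh5 and Crabp2 varied together within genotypes (0.90), although their means differed in opposite directions, and Aldh1a2 and Cyp26b1 varied oppositely (-0.76), although both fell.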

How the data were processed

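Hippocampal RNA of 4 wild-type and 4 Mbd2-/- pools of 2 mice was sequenced after ribosomal RNA depletion. Per the study's methods and processing notes, the authors deduplicated reads, aligned them to mm9 with STAR and compared genotypes with DESeq2; versions, the counting tool, its annotation and its use of strand are not given in the sources used here. The deposited signal is a normalized count, in which each gene's reads were divided by a DESeq2 size factor per library. The columns named C and K were taken as control and Mbd2-/- from the sample titles. The authors' own statistics (mean, log2 fold change, standard error, Wald statistic, p-values) were not used.

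Reads were recovered by taking the smallest non-zero value of a library as 1 read, and every value (100%) was then a whole number, with a tolerance of 0.01 reads. Reads on genes (8087750 to 23790825) set the counting error, which leaves out that reads lacking molecular identifiers need not be separate molecules. With limma 3.58.1 (R 4.3.3), genes averaging 10 or more normalized counts were compared on log2(normalized count + 1), with mean-variance trend and robust moderation, 4 libraries against 4 without covariates, and Benjamini-Hochberg adjustment over all tested genes. Intervals are at 95%. The limma, DESeq2, edgeR and limma-voom fits were tested on simulated counts that held no length trend, and the other steps were not. Alternatives were DESeq2 1.42.0, edgeR 4.0.16 and limma-voom on recovered reads, limma without trend and robust moderation, TMM and total count scaling, pseudocounts of 0.5 and 5, no filter or a minimum of 50, removal of a transcript length trend, a replicate block and leaving out each library.

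Symbols were matched to GENCODE vM1 on mm9, 16812 directly and 1285 by a synonym, for coordinates and the longest transcript. Promoter windows came from RefSeq on GRCm38.p6, and coordinates were not converted between builds. The genes and lists were chosen with earlier results of these data known. Named genes were the 9 genes, each called gene of the pathway list and the 3 of each role with the highest mean normalized count, Mbd2, overlapping genes, the 3 of each marker list with the highest mean normalized count and those at 0, and the 3 genes most like each of the 9 among genes with a mean of at least 50. Some genes that this rule selects are included in counts but not reported here. Further genes, such as Dcn, Nrip1 and Bco2, were named after their values were seen.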

Additional observations from a re-analysis of the deposited data

Results flagged for a closer look

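In 4 of the 82 groups of 4 libraries examined for the retinoid genes, 1 library stood apart from the other 3 by Dixon's test, and chance alone flags about 1 in 20 groups. Fabp5 had 725 normalized counts in wild-type replicate 2, against 553 to 582 in the other wild-type libraries. Dhrs4 had 117 in Mbd2-/- replicate 4, against 151 to 157 in the other Mbd2-/- libraries. Ncoa3 had 728 in wild-type replicate 2, against 769 to 774 in the others. Nrgn had 12116 in wild-type replicate 3, against 11566 to 11584 in the others. None of the 9 chosen genes was among them.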

How the results depend on the processing

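The 2 calls among the retinoid genes not picked for their change became 1 with DESeq2 and 1 with the trend on transcript length removed, and 0 to 2 when a library was left out, with 0 without wild-type replicate 4. They stayed at 2 in the other alternatives tried. The 10 other retinoid genes called higher became 4 with the length trend removed and 6 to 11 when a library was left out, the lowest of these without wild-type replicate 3 and without Mbd2-/- replicate 2. The 4 called lower became 1 with the length trend removed and 2 to 6 when a library was left out, with 2 without Mbd2-/- replicate 2, and 6 with total count scaling. Total count scaling moved the median log2 fold change of all genes by -0.015, and TMM by 0.002. Libraries of the same number did not deviate together over all tested genes (r = -0.10, -0.06, 0.07 and 0.04), so no pairing by number was seen. This check cannot exclude a litter or preparation shared by libraries of 1 number. With the replicate block the counts were 2, 9 and 4. The log2 fold change of Rdh5 ran from 0.92 to 1.22 over the alternatives and that of Crabp2 from -1.74 to -1.22, and their direction, fixed by how they were picked, is no sign of stability. The causes were not tested, and since the length trend runs with genotype, its removal may also take out a difference between genotypes. Over all genes the counts were 1170 to 2596 higher and 868 to 2559 lower when a library was left out. DESeq2 gave Rarres1 no adjusted p, and Crabp2 was below the minimum of 50. Among the 9 genes, Crabp1 and Crabp2 had the fewest reads.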
